A study of Homo sapiens with 12 samples.

Results

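The genes described here are 10 hypoxia factors and members of the VEGF family: the transcription factors HIF1A, EPAS1 and ARNT, the hypoxia-responsive genes CA9 and ANGPTL4, the growth factors VEGFA, VEGFB and VEGFC, and the co-receptors NRP1 and NRP2. They were chosen by symbol, through the transcript that the array design names for each probe, out of 20708 genes with a probe. All 10 were measured, by 133 probes, of which 123 were kept. The filter asked that a probe exceed background clearly in every one of the 3 arrays of some group, and 18253 genes were tested. Expression was measured in MDA-MB-231, an established triple-negative breast cancer cell line, on 12 single-colour exon arrays, 3 for each of 4 groups. The cntrl cells received control oligonucleotides in place of both agents. The mimic145 cells received the precursor mimic Pre-miR-145-5p at 5 nM, the sirnaAGO2 cells Dicer-substrate siRNAs against AGO2 at 500 pM for 72 h, and the sirnaAGO2+mimic145 cells both. All groups were grown in the same serum-containing medium, and no label names a low-oxygen treatment. All values come from 1 cell line, so they describe these transfected cultures and no other breast cancer cells.

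The share of spots well above background was 60.5% to 77.3% per array, no spot was saturated, and all slides were scanned on 1 day. AGO2, the silenced gene, fell by 0.71 on the log2 scale in sirnaAGO2 against cntrl (SE 0.08, adjusted p = 0.00492, limma) and fell by 1.06 in sirnaAGO2+mimic145 against mimic145, and was 0.28 higher in mimic145 than in cntrl. Without replicate 1, 2 or 3, or without sirnaAGO2 replicate 1, the first of these falls kept its direction and missed the threshold, with adjusted p from 0.0522 to 0.221 (limma). The second also kept its direction and missed it without replicate 1, 2 or 3, with adjusted p up to 0.0757 (limma), and the rise of AGO2 in mimic145 passed in 13 of 26 alternatives. VIM, CD44, EGFR and ZEB1, which mark this mesenchymal-like line, were above background on at least 9 probes each. Of 5 luminal and epithelial markers, PGR was above background on 0 of 9 probes, ESR1 on 6 of 14 and CDH1 on 7 of 16, whereas EPCAM was above it on 9 of 10 and GATA3 on 6 of 6. Of the endothelial markers, KDR was above background on 3 of 31 probes, TEK on 3 of 24, CDH5 on 4 of 13, VWF on 19 of 52 and PECAM1 on 1 of 2. The arrays were run in pairs on 6 slides, so that a mimic array shared its slide with the array of the same number without the mimic, and control and silenced cells lay on separate slides. The mimic array always lay at position 2 of its slide, so position and mimic cannot be told apart.

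Cells sense oxygen through the hypoxia-inducible factors. HIF1A and EPAS1 (HIF-2 alpha) encode the regulated alpha subunits, which are hydroxylated by prolyl hydroxylases in the presence of oxygen, bound by the VHL protein and degraded. When oxygen is short the alpha subunits escape this step, pair with the constitutive partner ARNT (HIF-1 beta) and bind hypoxia response elements near genes of glycolysis, pH control and blood vessel growth. VEGFA, the central factor of angiogenesis, is among their targets. NRP1 and NRP2, the neuropilins, are transmembrane co-receptors that bind VEGF forms and class 3 semaphorins. Transcript arrays do not measure the stability of the HIF proteins, which is the main point at which oxygen acts on them.

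The mimic delivers miR-145-5p, a microRNA with tumour-suppressor activity in several cancers, which guides Argonaute proteins to mRNAs through its seed. Its mature sequence in RefSeq is shown because it is the agent whose effect the comparisons measure, with bases 2 to 8, the seed, in capitals (GRCh38.p14, chr5:149430661-149430683, plus strand).

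hsa-miR-145-5p: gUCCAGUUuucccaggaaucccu

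In control cells the mimic was accompanied by higher HIF1A, EPAS1 and NRP1 transcript and lower CA9 transcript. These 4 of the 10 genes passed the threshold (adjusted p under 0.05, limma, over all genes), 3 of them higher and 1 lower. In the same comparison 4121 of 18253 genes (22.6%) passed, 2115 of them higher (11.6%) and 2006 lower (11%). The median log2 difference of the 10 genes was 0.19 and that of all genes 0.01. In Ago2-silenced cells the same mimic was accompanied by higher EPAS1 alone among the 10, where 1328 genes (7.28%) passed. The mimic comparisons in control and in silenced cells have no array in common, while each silencing comparison uses arrays of both.

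**Figure D1:**
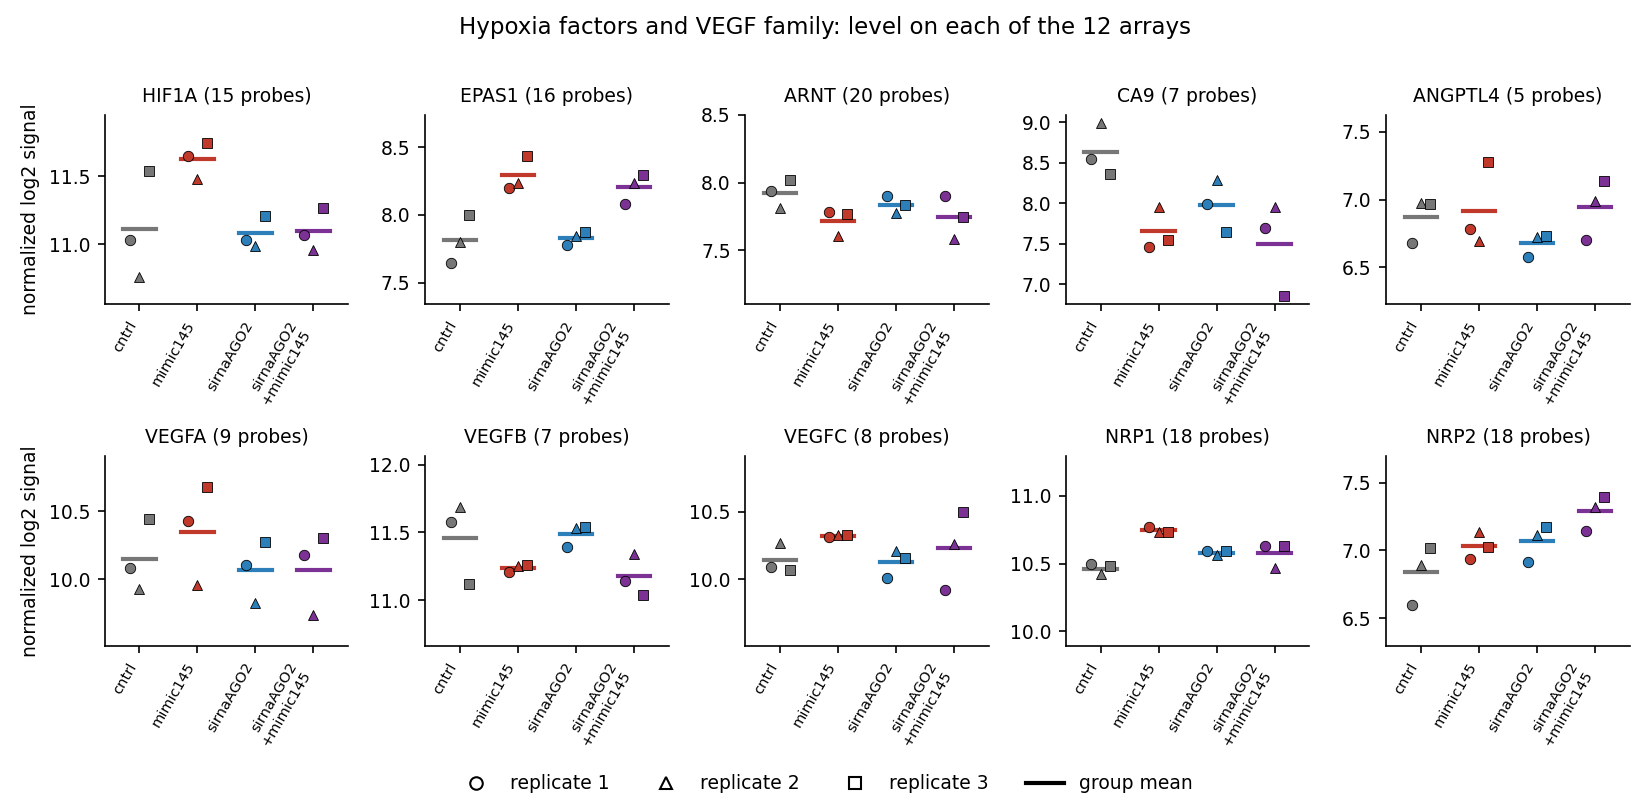
Normalized log2 signal (vertical axis) of each of the 10 genes on the 12 arrays, by group (horizontal axis). A point is the mean over the kept probes on 1 array, its shape gives the replicate number, and a bar is the mean of 3 arrays. Levels may be compared between groups of a gene and not between genes. HIF1A stood highest in mimic145, EPAS1 was higher in both groups with the mimic, and CA9 was highest in cntrl.

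HIF1A encodes the alpha subunit of HIF-1. Its normalized log2 signal, averaged over 15 probes, was 11.03, 10.76 and 11.54 in replicates 1 to 3 of cntrl and 11.65, 11.48 and 11.75 in mimic145. It was 11.03, 10.99 and 11.21 in sirnaAGO2, and 11.07, 10.96 and 11.27 in sirnaAGO2+mimic145. The mimic145 mean was the highest of the 4 groups, although cntrl replicate 3 lay above the lowest mimic145 array, and the other group means differed by less than the spread of their arrays. HIF1A was 0.51 higher in mimic145 than in cntrl (SE 0.10, 1.43-fold, adjusted p = 0.00843, limma), and each of the 3 replicate pairs, which shared a slide, was higher, by 0.62, 0.71 and 0.21. In silenced cells the mimic went with a difference of 0.02 (95% confidence interval -0.21 to 0.26), which did not pass. The call in control cells was lost without replicate 1 (adjusted p = 0.126) and without replicate 2 (adjusted p = 0.0753), with a log2 difference of 0.46 and 0.42 (limma).

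With the mimic present, HIF1A was 0.53 lower in sirnaAGO2+mimic145 than in mimic145 (SE 0.10, adjusted p = 0.0300, limma), where 788 genes (4.32%) passed. It was lower in 3 of 3 pairs, and the groups did not overlap. It was the only one of the 10 to pass in that comparison. This call is at the threshold: it was lost in 12 of the 15 fits that left out a replicate or an array, with adjusted p from 0.0513 to 0.280, and held only without cntrl replicate 2, cntrl replicate 3 or sirnaAGO2 replicate 2. These groups lie on different slides. Taking the slide as a random effect in place of the replicate number gave an adjusted p of 0.213 (limma). The difference between the mimic effects with and without silencing was -0.49 for HIF1A (95% confidence interval -0.83 to -0.16, adjusted p = 0.169, limma) and did not pass. By that test 2 of 18253 genes (0.011%) passed, and 3061 had an unadjusted p under 0.05, among them HIF1A, NRP1 and CA9 of the 10.

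EPAS1 encodes the alpha subunit of HIF-2. Over 16 probes its log2 signal was 7.65, 7.80 and 7.995 in cntrl, 8.20, 8.24 and 8.43 in mimic145, 7.78, 7.84 and 7.87 in sirnaAGO2, and 8.08, 8.24 and 8.29 in sirnaAGO2+mimic145. All 6 arrays with the mimic lay above all 6 without it. The mean was 0.48 higher in mimic145 than in cntrl (SE 0.07, 1.39-fold, adjusted p = 0.00157, limma) and 0.37 higher with the mimic in silenced cells (SE 0.07, 1.29-fold, adjusted p = 0.0200, limma). The effects differed by -0.10 (95% confidence interval -0.32 to 0.11, adjusted p = 0.604, limma), and silencing alone went with a difference of 0.02. The first call was lost without replicate 1 (adjusted p = 0.0540, limma). The second was lost without any one replicate (adjusted p from 0.0778 to 0.207) and without replicate 2 or 3 of sirnaAGO2 or of sirnaAGO2+mimic145 (from 0.0705 to 0.0963), with log2 differences between 0.33 and 0.41.

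ARNT, the shared partner of both alpha subunits, did not rise with them. Over 20 probes its log2 signal was 7.93, 7.81 and 8.02 in cntrl and 7.78, 7.61 and 7.77 in mimic145. The mimic145 arrays were lower in 3 of 3 pairs and did not overlap with cntrl, but the difference of -0.20 (SE 0.07, adjusted p = 0.0628, limma) missed the threshold. In sirnaAGO2 the values ran from 7.78 to 7.90 and in sirnaAGO2+mimic145 from 7.58 to 7.90. Under the alternatives the difference between mimic145 and cntrl ran from -0.277 to -0.105 and passed in 1 (adjusted p = 0.0266, limma). ARNT probes with means of 7.42 and 6.23 in cntrl, against 6.42 and 5.61 in mimic145, met the filter in cntrl and sirnaAGO2 alone. The filter thus favoured a fall with the mimic, and the mean over the 20 probes includes these probes.

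**Figure D2:**
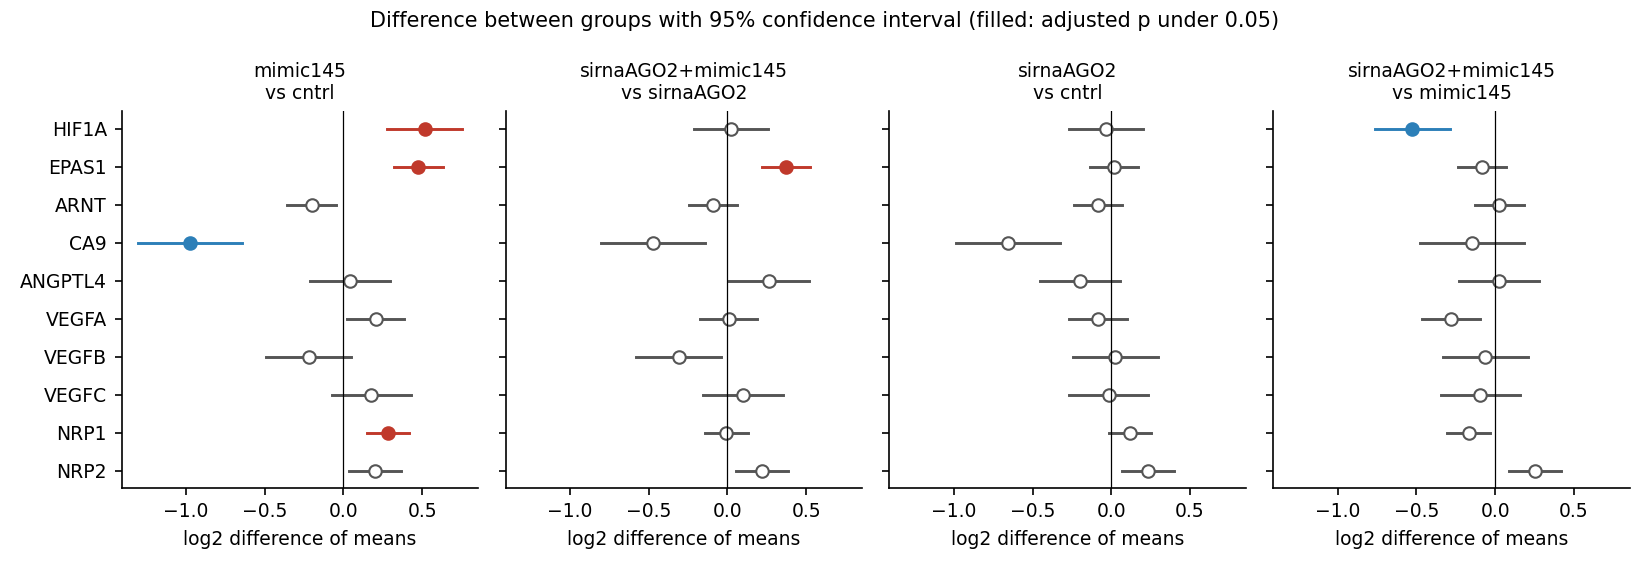
Difference between group means on the log2 scale (horizontal axis) of the 10 genes in 4 comparisons, with the 95% confidence interval from limma as a bar. Filled points passed an adjusted p of 0.05, in red where higher and in blue where lower. HIF1A, EPAS1, CA9 and NRP1 passed for the mimic in control cells, EPAS1 for the mimic in silenced cells, 0 of 10 for silencing alone, and HIF1A for silencing in cells with the mimic.

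CA9 encodes carbonic anhydrase IX, a cell surface enzyme of pH control that is widely used as a marker of hypoxia. Over 7 probes its log2 signal was 8.54, 8.98 and 8.36 in cntrl, 7.46, 7.95 and 7.55 in mimic145, 7.99, 8.28 and 7.65 in sirnaAGO2, and 7.69, 7.96 and 6.86 in sirnaAGO2+mimic145. All cntrl arrays lay above those of the other 3 groups. CA9 was 0.98 lower in mimic145 than in cntrl (SE 0.15, adjusted p = 0.00191, limma), which left 50.8% of the signal, and the pair differences were -1.08, -1.04 and -0.82. In silenced cells the log2 difference with the mimic was -0.47 (SE 0.15, adjusted p = 0.0785, limma), in 3 of 3 pairs, and did not pass. It ranged from -0.61 to -0.26 with replicates or arrays left out, passed without sirnaAGO2+mimic145 replicate 1 (adjusted p = 0.0364, limma), and was 0.21, of opposite sign, with the median over probes (adjusted p = 0.415, limma). The 2 differences were themselves 0.51 apart (95% confidence interval 0.04 to 0.97, adjusted p = 0.269, limma).

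Silencing alone went with a CA9 difference of -0.66 (SE 0.15, adjusted p = 0.0523, limma), again in 3 of 3 pairs and without overlap. This was the value nearest to the threshold among the 10, of which 0 passed, in a comparison in which 471 genes (2.58%) did. CA9 and NRP2 had an unadjusted p under 0.05, as did 3466 of the 18253 genes. With 75th percentile scaling, normexp, the probes above background on all 12 arrays, the arrays of these 2 groups alone or an intensity trend, CA9 passed, with adjusted p from 0.0220 to 0.0451. It also passed in 3 of the 15 fits that left out a replicate or an array. Taking the slide as a random effect in place of the replicate number gave an adjusted p of 0.400 (limma). In cells with the mimic, silencing went with a CA9 difference of -0.15 (95% confidence interval -0.48 to 0.18).

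CA9 was close to background on some probes. No mimic145 array measured 2 of its 7 kept probes well above background, and no sirnaAGO2+mimic145 array measured 3 of them so. Dim signals were raised to the lowest signal called well above background on the same array where they lay under it. The 2 probes dim in mimic145 were then 2.13-fold and 2.34-fold higher in cntrl than in mimic145. The signal of the second of these was used unchanged, although it was not called well above background, so these values are not bounds. On the 4 probes above background on all 12 arrays, the CA9 difference was -0.59 in mimic145 (adjusted p = 0.00564, limma), and the mimic effect in silenced cells was -0.08. The probes disagreed: one differed by 0.05 between mimic145 and cntrl, while 5 of the 7 passed as lower. Among these 5 were the 3 probes that were dim in sirnaAGO2+mimic145. Those 3 met the filter in cntrl and sirnaAGO2 alone, so they entered only through groups in which they were high and had to differ. The mean over the 7 probes includes them, and the fold values above come from such probes. The median over the probes followed 1 probe that differed by -0.21, and with it CA9 no longer passed (adjusted p = 0.380, limma).

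ANGPTL4, a secreted regulator of lipoprotein lipase that rises in hypoxia in many cells, did not pass in any of the 5 comparisons. Its log2 signal over 5 probes ran from 6.68 to 6.97 in cntrl, 6.69 to 7.27 in mimic145, 6.58 to 6.73 in sirnaAGO2 and 6.70 to 7.14 in sirnaAGO2+mimic145. The mimic difference was 0.04 in control cells (95% confidence interval -0.21 to 0.30) and 0.27 in silenced cells (0.01 to 0.52, adjusted p = 0.157, limma). The gene was dim, with 2 of its 5 kept probes above background on all 12 arrays.

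The VEGF ligands did not pass in any comparison with all arrays and the mean over probes. VEGFA had a log2 signal of 10.08, 9.93 and 10.44 in cntrl, 10.43, 9.95 and 10.68 in mimic145, 10.10, 9.83 and 10.27 in sirnaAGO2, and 10.18, 9.74 and 10.30 in sirnaAGO2+mimic145. Replicate 2 was the lowest array of each group, and the range within each group was larger than the differences between group means. Within pairs VEGFA was higher in mimic145 than in cntrl in 3 of 3, by 0.20 on average (95% confidence interval 0.02 to 0.39, adjusted p = 0.102, limma). In silenced cells the difference was 0.01. With the median over its 9 probes in place of the mean, VEGFA was 0.45 higher in mimic145 and passed (adjusted p = 0.0145, limma). By mean level the middle probe was the same in both groups. It differed by 0.46, the largest difference of the 9, and was the only VEGFA probe to pass, so the median rests largely on 1 probe.

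VEGFB, a ligand of FLT1, ran from 11.12 to 11.69 in cntrl, 11.21 to 11.26 in mimic145, 11.39 to 11.54 in sirnaAGO2 and 11.04 to 11.34 in sirnaAGO2+mimic145. Its mimic difference was -0.22 in control cells (adjusted p = 0.219) and -0.31 in silenced cells (adjusted p = 0.130, limma), where all 3 arrays with the mimic lay below the others. All 7 probes were lower in both comparisons, but 1 of them, at -0.57 and -0.91, was far below the rest. That probe was dim, and it met the filter only in cntrl and sirnaAGO2, the groups in which it was high. The pairs of control cells disagreed, with -0.37, -0.44 and 0.14. Without replicate 3 the difference was -0.40, and without cntrl replicate 3 it was -0.38, and both passed (adjusted p = 0.0384 and 0.0242, limma). VEGFC, which acts mainly on lymphatic vessels through FLT4, was 10.09, 10.27 and 10.07 in cntrl and 10.31, 10.33 and 10.33 in mimic145. The 2 groups did not overlap, yet the difference of 0.18 did not pass (SE 0.11, adjusted p = 0.295, limma). In sirnaAGO2+mimic145 VEGFC ranged from 9.92 to 10.50, the widest spread of its groups.

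NRP1 varied little between replicates. Over 18 probes its log2 signal was 10.50, 10.42 and 10.48 in cntrl, 10.77, 10.73 and 10.73 in mimic145, 10.59, 10.56 and 10.59 in sirnaAGO2, and 10.63, 10.47 and 10.63 in sirnaAGO2+mimic145. It was highest in mimic145, lowest in cntrl, and had a mean of 10.58 in both silenced groups. The mimic difference was 0.28 in control cells (SE 0.06, 1.22-fold, adjusted p = 0.0102, limma) and -0.01 in silenced cells (95% confidence interval -0.14 to 0.13). Silencing went with 0.12 in the absence of the mimic and with -0.17 in its presence, in 3 of 3 pairs each, and neither passed (adjusted p = 0.321 and 0.147, limma). The difference between the mimic effects was -0.29 (95% confidence interval -0.48 to -0.10, adjusted p = 0.160, limma). Of the 18 probes 17 were above background on all 12 arrays. The other met the filter in sirnaAGO2 alone, with a mean of 6.60 there and 5.37 in sirnaAGO2+mimic145. The filter thus favoured a rise with silencing alone and a fall with the mimic in silenced cells. Apart from fits that left out replicates or arrays, the alternatives gave -0.04 to 0.07 for the mimic in silenced cells. For the difference of the mimic effects they gave -0.29 to -0.23. Without replicate 1, 2 or 3 the call in control cells was lost, with adjusted p of 0.128, 0.0858 and 0.0722 and log2 differences from 0.27 to 0.30 (limma).

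NRP2 was higher in each of the 4 pairwise comparisons, in 3 of 3 pairs, and passed in none. Over 18 probes it was 6.60, 6.89 and 7.02 in cntrl, 6.94, 7.14 and 7.03 in mimic145, 6.91, 7.12 and 7.18 in sirnaAGO2, and 7.15, 7.32 and 7.40 in sirnaAGO2+mimic145. The log2 differences were 0.20 and 0.22 for the mimic, without and with silencing, and 0.23 and 0.25 for silencing, without and with the mimic, with adjusted p between 0.0836 and 0.132 (limma). With 75th percentile scaling, which moved the median of all genes to 0.07 and 0.11 in the mimic comparisons, NRP2 passed for the mimic in control cells (0.31, adjusted p = 0.0136) and in silenced cells (0.40, adjusted p = 0.0156, limma). It also passed in control cells without mimic145 replicate 3 (0.27, adjusted p = 0.0386, limma). Under the alternatives the 4 differences ran from 0.10 to 0.40. Of the 18 probes 9 were above background on all 12 arrays. The highest probe for the mimic in control cells, at 1.48, met the filter in mimic145 alone. Probes with means of 6.33 and 6.27 in sirnaAGO2, against 5.69 and 5.39 in cntrl, met it in sirnaAGO2 alone. The filter favoured these rises. A probe at 6.02 in cntrl and 5.72 in sirnaAGO2 met it in cntrl alone, which favoured a fall.

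The arrays of the groups did not overlap for 5 of the 10 genes in mimic145 against cntrl, where this held for 28.4% of all genes. It held for 2 of 10 in sirnaAGO2+mimic145 against sirnaAGO2 (24.1% of all genes), for 2 of 10 in sirnaAGO2 against cntrl (19.1%) and for 3 of 10 in sirnaAGO2+mimic145 against mimic145 (14.8%). The last pair of comparisons uses the arrays of the first pair again. With 10 genes, nothing beyond these counts is read from the shares.

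The exon array measures each gene at several places, and the probes of a gene did not always move alike. Of 153960 probes, 14.2% passed for the mimic in control cells and 1.67% in silenced cells. For EPAS1, 16 of 16 probes were higher with the mimic in control cells, 11 of which passed, and 16 of 16 in silenced cells, 2 of which passed. For HIF1A, 14 of 15 probes were higher in mimic145 and 12 passed, between 0.49 and 0.68 on the log2 scale. The exception, a probe assigned to transcript NM_181054, was -0.37 in control cells and -1.52 in silenced cells, and did not pass in either. Without it the other HIF1A probes ran from -0.02 to 0.27 with the mimic in silenced cells.

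**Figure D3:**
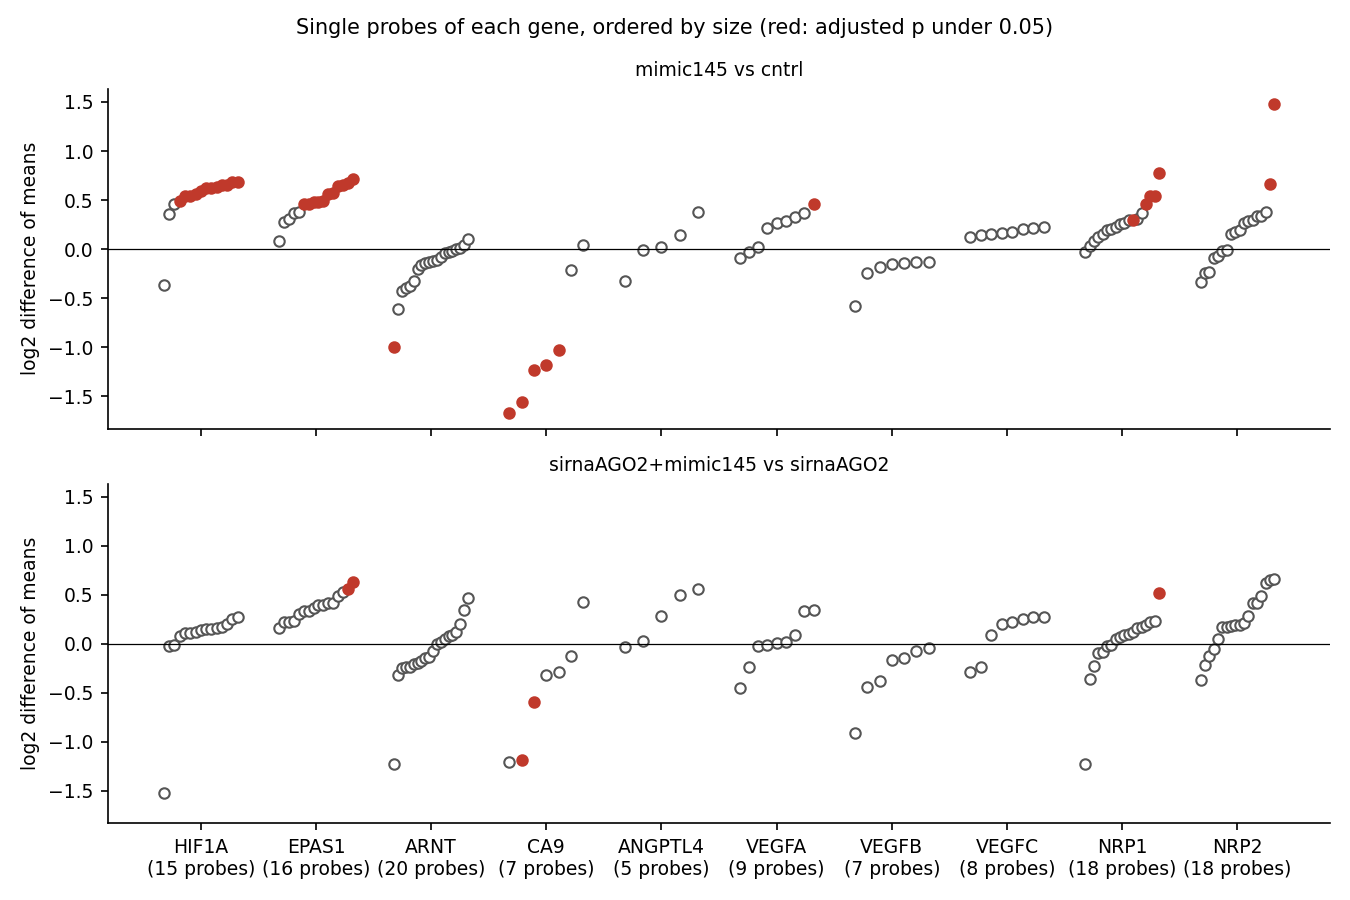
Log2 difference with the mimic (vertical axis) of each kept probe of the 10 genes, in control cells above and in Ago2-silenced cells below, ordered by size within each gene. Red points passed an adjusted p of 0.05 over all probes. The HIF1A and EPAS1 probes lay together in control cells except for 1 HIF1A probe, while the CA9, NRP1 and NRP2 probes were spread out.

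Whether the probes of a gene changed by different amounts was tested with limma's diffSplice, which called 2197 of 15418 genes (14.2%) for the mimic in control cells, 3056 (19.8%) in silenced cells and 59 (0.383%) for silencing alone. Among the 10 genes, ARNT, CA9, NRP1 and NRP2 were called in control cells (adjusted p = 0.0277, 0.000890, 0.0250 and 0.000314). VEGFA, HIF1A, ARNT, CA9 and NRP1 were called in silenced cells, with adjusted p from 1.12e-09 for NRP1 to 0.0261 for VEGFA, and 0 of 10 for silencing alone. For the mimic in silenced cells the lowest NRP1 and ARNT probes both differed by -1.23. The NRP1 probe was well above background on 3 of 3 arrays of sirnaAGO2 alone, the ARNT probe on those of cntrl and sirnaAGO2 alone. Both entered only through groups in which they were high, as did 3 CA9 probes, so the filter favoured these differences. In control cells the lowest ARNT probe was the only ARNT probe to pass. It met the filter in cntrl and sirnaAGO2 alone, so the filter favoured its fall. In NRP1 the 4 probes assigned to transcript NM_003873 differed by -0.03 to 0.26 between mimic145 and cntrl and none passed. The 2 probes assigned to NM_001024628 differed by 0.55 and 0.78 and both passed, as did 3 of the 12 assigned to NM_001024629. RefSeq holds transcripts of NRP1 for the full-length co-receptor and for shorter secreted forms, but an exon can belong to several of them, and the array design names 1. In NRP2 the highest probe, at 1.48 in control cells and assigned to NM_201264, passed together with 1 other of the 9 probes of that transcript, at 0.66. Each was well above background on 1 of 3 cntrl arrays. The first was above it on 3 of 3 arrays of mimic145 alone, so that it entered only through the group in which it was high and had to differ.

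Among the oxygen-sensing genes around HIF, those that passed in control cells went in both directions. Of 15 regulators and partners, 2 passed as lower and 2 as higher in mimic145 against cntrl. Of all genes 11% passed as lower and 11.6% as higher there, and nothing is read from the count. In each of the other 4 comparisons 0 of the 15 passed in either direction. The list's median was 0.05, against 0.01 for all genes. EGLN3, a prolyl hydroxylase that marks the alpha subunits for destruction and is itself induced by HIF, was 0.96 lower (SE 0.14, adjusted p = 0.00167, limma). Its log2 signal was 7.75, 7.43 and 8.08 in cntrl and 6.77, 6.39 and 7.23 in mimic145, without overlap. ARNT2, a relative of ARNT, was 0.63 lower. VHL, the subunit that recognises hydroxylated HIF, was 0.49 higher on 3 probes (adjusted p = 0.00217), and HSP90AA1, a chaperone of HIF1A among many other proteins, was 0.40 higher (adjusted p = 0.0167, limma). The HSP90AA1 call was lost without replicate 1 (0.26, adjusted p = 0.179), without replicate 2 (adjusted p = 0.0967) and in 3 of the fits without 1 array, and the VHL call without replicate 1 (adjusted p = 0.0541, limma).

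Known HIF target genes were mostly lower with the mimic in control cells. Of 33 listed genes 31 were tested, and 18 passed as lower and 1 as higher, where 11% and 11.6% of all genes did. The list's median log2 difference was -0.35 against 0.01 for all genes. The estimate was lower in all 3 pairs for 25 of the 31, or 80.6%, which held for 24.5% of all genes. The largest falls were those of ADM, the vasodilator peptide adrenomedullin, by 1.01 (SE 0.14, adjusted p = 0.00155), P4HA1, a collagen prolyl 4-hydroxylase, by 0.83 (SE 0.11, adjusted p = 0.00104), and ALDOA, the glycolytic aldolase A, by 0.62 on 2 probes (SE 0.11, adjusted p = 0.00402, limma). The gene that rose was CA12, a membrane carbonic anhydrase, by 0.38 (SE 0.08, adjusted p = 0.00890, limma). Its call was lost without replicate 1, 2 or 3 (adjusted p up to 0.106), and that of ALDOA without replicate 1 (adjusted p = 0.0766, limma). Some of the listed genes, such as TFRC, are also controlled by other factors. The list was drawn up with earlier results of these data known, and its count is not independent evidence of its direction.

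**Figure D4:**
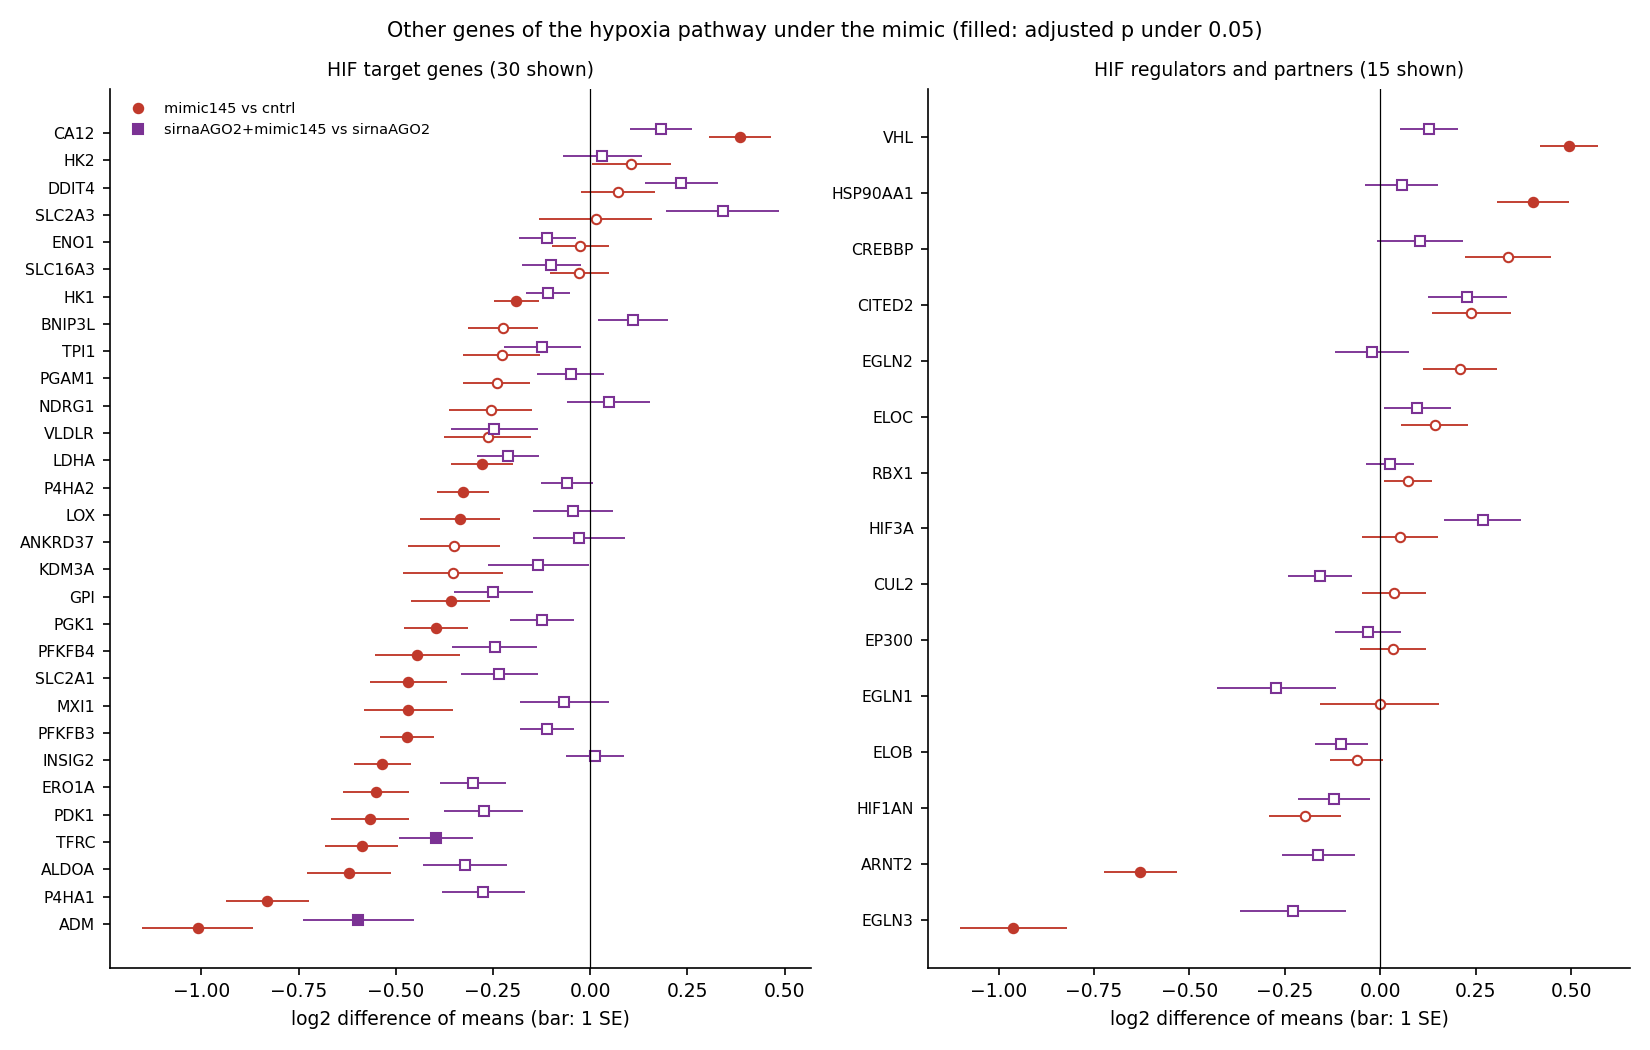
Log2 difference with the mimic (horizontal axis, bars of 1 SE) of 30 HIF target genes (left) and 15 HIF regulators and partners (right), ordered by the value in control cells. Red circles are mimic145 against cntrl and purple squares sirnaAGO2+mimic145 against sirnaAGO2, filled where the adjusted p was under 0.05. In control cells 17 of the targets shown passed as lower, from HK1 at -0.19 to ADM at -1.01, and in silenced cells TFRC and ADM passed.

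The glycolytic genes of this list, named here after their values were seen, were not all alike. PFKFB3, PFKFB4, SLC2A1, GPI, PGK1, LDHA, HK1 and PDK1 passed as lower, while ENO1 (-0.03), SLC16A3 (-0.03), SLC2A3 (0.01) and HK2 (0.11) had estimates near 0 and did not pass. PGAM1 (-0.24) and TPI1 (-0.23) were lower in 3 of 3 pairs and did not pass either. In silenced cells 3 of the 31 targets passed as lower with the mimic and 0 as higher, where 553 of 18253 genes (3.03%) passed as lower. The list's median there was -0.11, against 0.02 for all genes. Among the 3 targets were ADM, lower by 0.60 (adjusted p = 0.0424), and TFRC, the transferrin receptor, by 0.40 (adjusted p = 0.0413, limma). Silencing alone went with lower ADM, by 0.71 (adjusted p = 0.0407), and lower INSIG2, by 0.36 (adjusted p = 0.0424, limma), and a list median of -0.18, where that of all genes was -0.03. These calls lay near the threshold. With replicates or arrays left out, that of ADM was lost in 11 of 15 fits in silenced cells (adjusted p up to 0.281) and in 12 of 15 for silencing alone (up to 0.242), that of TFRC in 11 (up to 0.262) and that of INSIG2 in 14 (up to 0.412, limma). For silencing in cells with the mimic 0 of the 31 passed, and 0 passed for the difference between the mimic effects, whose list median was 0.23 against 0.02 for all genes. Without replicate 1, 5 targets passed as lower in control cells, where 3.94% of all genes did, and without replicate 2, 11 did, where 6.74% of all genes did. The list's median was -0.33 in both.

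Over the 12 arrays, after the mean of each replicate number was taken off, the genes with the highest correlation to CA9 were COMMD9, ADM and SMYD2 (r = 0.974, 0.974 and 0.971), of which ADM is a listed HIF target. For HIF1A they were BCL6, SURF6 and NDUFB4 (r = 0.966, 0.960 and 0.956), for EPAS1 PRKAB1, ZNF275 and ZFAND2A (r = 0.990, 0.986 and 0.980), and for NRP1 POP1, WDR4 and RIOX2 (r = 0.977, 0.975 and 0.969). These arrays share slides and 4 groups, and each gene was the highest of many, so the values describe likeness only.

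HIF binds the core letters ACGTG or GCGTG. These were searched for on both strands of the 250 bases before each start in RefSeq (GRCh38.p14), where at least one was present in 43.2% of 35116 windows and in 47.4% of 27305 genes. ACGTG on both strands overlaps the palindrome CACGTG, the site of other factors. Of the 10 genes 8 had a window and 6 of these held a match: HIF1A in 1 of its 2 windows, EPAS1, ANGPTL4, CA9, VEGFB and VEGFC. VEGFA and NRP1 had no entry. Of the HIF targets that passed as lower in mimic145, 15 of 17 with a window held a match, and of those that did not pass, 8 of 9 did. The windows of CA9, P4HA1 and ADM are shown because these genes fell most among the members and HIF targets with a window and a match. Capitals mark the match, which is a description of letters and not a binding site. The CA9 window is chr9:35673678-35673927 on the plus strand, with the match 18 bases before the start. The P4HA1 window is chr10:73096867-73097116 on the minus strand, with the match 86 bases before the start. The ADM window is chr11:10304823-10305072 on the plus strand, with the match 101 bases before the start.

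CA9: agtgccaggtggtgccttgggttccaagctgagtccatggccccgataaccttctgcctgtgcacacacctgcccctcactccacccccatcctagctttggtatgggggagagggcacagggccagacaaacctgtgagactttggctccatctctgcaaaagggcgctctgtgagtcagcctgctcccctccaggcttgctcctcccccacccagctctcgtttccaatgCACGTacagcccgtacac
P4HA1: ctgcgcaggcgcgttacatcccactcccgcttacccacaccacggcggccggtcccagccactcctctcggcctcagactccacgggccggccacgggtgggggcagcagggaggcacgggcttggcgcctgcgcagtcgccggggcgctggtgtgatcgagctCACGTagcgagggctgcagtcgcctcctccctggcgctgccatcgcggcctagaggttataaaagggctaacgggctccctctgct
ADM: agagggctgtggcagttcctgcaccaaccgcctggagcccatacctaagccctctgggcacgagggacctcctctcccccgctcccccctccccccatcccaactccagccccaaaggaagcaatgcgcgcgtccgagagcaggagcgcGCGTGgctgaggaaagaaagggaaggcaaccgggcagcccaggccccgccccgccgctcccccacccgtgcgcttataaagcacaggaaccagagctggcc

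Other ligands and receptors of the VEGF system exceeded background on few of their probes, apart from PGF on 4 of 6. VEGFD was above background on 0 of 7 probes, and FLT1, KDR and FLT4, the VEGF receptors, were kept on 3 of 30, 3 of 31 and 14 of 30. PGF, the placental growth factor that binds FLT1, was 0.41 higher with the mimic in control cells (adjusted p = 0.0323) and 0.62 higher in silenced cells (adjusted p = 0.0212, limma). On its 3 kept probes KDR was 0.26 and 0.66 higher in the same comparisons, and 0.48 higher in sirnaAGO2+mimic145 than in mimic145 (adjusted p = 0.0473, 0.00684 and 0.0180, limma). KDR lay near background: 1 probe was well above it on all 3 mimic145 arrays, and 2 were so in each other group. Of the 4 genes tested from this list, 2 passed as higher with the mimic in control cells and 2 in silenced cells. Of all 18253 genes, 2115 (11.6%) and 775 passed as higher in these comparisons, and nothing is read from a count of 4. With replicates or arrays left out the calls in control cells were lost in 7 of 15 fits for PGF (log2 difference from 0.25) and in 13 for KDR, and those in silenced cells in 6 and 2.

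Of 12 class 3 semaphorins and plexins, the other ligands and partners of the neuropilins, 2 passed as lower with the mimic in control cells and 0 as higher: SEMA3B by 0.38 (adjusted p = 0.0129) and the plexin PLXND1 by 0.36 (adjusted p = 0.0147, limma). Of all genes 11% passed as lower and 11.6% as higher with the mimic in control cells. None of the 12 passed with the mimic in silenced cells or for silencing alone, where 7.28% and 2.58% of all genes passed. SEMA3C was 0.68 lower in sirnaAGO2+mimic145 than in mimic145 (adjusted p = 0.0179, limma), where 4.32% of all genes passed. Of 10 angiopoietins, their receptors and angiopoietin-like genes tested, ANGPTL2 was 1.32 higher with the mimic in control cells and 0.88 higher in silenced cells, on 2 probes (adjusted p = 0.00125 and 0.0278). ANGPT1, a ligand of the TEK receptor, was 0.57 lower in mimic145 (adjusted p = 0.0221) and 0.67 lower in sirnaAGO2 (adjusted p = 0.0499) than in cntrl, and ANGPTL8, on 1 probe, was 0.64 higher with the mimic in silenced cells (adjusted p = 0.0344, limma). Of 15 fits with replicates or arrays left out, SEMA3B lost its call in 5, PLXND1 in 6 and SEMA3C in 7. ANGPTL2 kept it in control cells in all 15 and lost it in silenced cells in 8, ANGPT1 lost it in 6 for the mimic and in 13 for silencing, and ANGPTL8 in 6. With 12 and 10 genes tested, nothing is read from the counts of these lists.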

How the data were processed

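Total RNA of 12 MDA-MB-231 cultures, described as biological triplicates, was labelled in 1 colour by the authors, hybridized to Agilent exon arrays and read with Agilent Feature Extraction 10.7.3.1. The deposited processed signal is an intensity corrected for background within each array and not normalized between arrays. The authors also deposited log2 values of 217027 probes, quantile normalized, which served as an alternative. Their rank correlation with the background-subtracted signal of the arrays, taken without normalization, was 0.995 to 1.00 per array. Groups and replicate numbers came from the labels. Here control and outlier spots (304 to 462 an array) were left out, signals under 1 were to be set to 1 (none was), and values were quantile normalized, log2 transformed and averaged over spots of a probe and kept probes of a gene. Of 233164 probes 89.9% had a gene, named through RefSeq names for GRCh38.p14, whereas the array design is on hg19, so no coordinates of probes are given. Signals of different genes were not compared.

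With limma 3.58.1, all 12 arrays entered 1 linear model of group plus replicate number (R 4.3.3, data.table version 1.17.8), giving two-sided tests and Benjamini-Hochberg adjustment over all genes. Single probes and diffSplice were fitted in the same way. The paper's methods name a paired test. Deviations from group means correlated at 0.148 to 0.576 for the 18 pairs of arrays of the same number and at -0.497 to 0.201 otherwise. The median SE of a log2 difference was 0.10, a precision set by the small number of arrays. The methods were tested on simulated data. Plots used Python 3.11.15, matplotlib 3.10.9 and pandas 2.3.3. The alternatives were 75th percentile scaling, normexp with offset 50, the authors' table, no filter, probes above background on all 12 arrays, the slide as a random block, a fit without the replicate block, the median over probes, only the arrays compared, an intensity trend, the methods' t-test, and fits without 1 replicate or 1 array. The fit with the slide as a random block also left out the replicate number. The members and the gene lists were chosen with earlier results of these data known. Named genes are the members, AGO2, the called genes of each list (at most the 3 with the largest change in a comparison, apart from genes named in groups), and the 3 genes most correlated with each called member. Markers were taken as lists of well-known genes. BNIP3 was not matched to a probe. One HIF target gene was counted with its list and is not reported here.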

Additional observations from a re-analysis of the deposited data

How the results depend on the processing

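No value of the 10 genes reversed in any setting in which it, or the value as reported, passed. Of 1290 values under an alternative, 1158 kept their call or, where not called, moved by less than 1 SE, 41 lost their call, 17 gained one and 74 moved further without a call. Of the other genes tested this way, ALDOA reversed in mimic145 with no filter on dim probes (0.10). HIF1A, EPAS1, CA9 and NRP1 passed for the mimic in control cells in 21, 24, 24 and 21 of 26 alternatives. In that comparison 2 of the 10 passed with only the arrays compared and 0 with the methods' paired t-test, and leaving out replicates or arrays gave 1 to 5. For the mimic in silenced cells 2 passed with 75th percentile scaling or the median over probes, 0 with only the arrays compared or the t-test, and 0 to 2 with replicates or arrays left out. For silencing alone 1 passed with 75th percentile scaling, normexp, the strict filter on probes, only the arrays compared or an intensity trend, and 0 to 1 with replicates or arrays left out. For silencing with the mimic 0 passed with the median over probes, the slide as a random block, only the arrays compared or the t-test, and 0 to 1 with replicates or arrays left out.

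Of the HIF targets, 10 were lower in mimic145 with the median over probes, 0 with the t-test, and 5 to 19 with replicates or arrays left out. In silenced cells 5 were lower with normexp, 0 with the median over probes, only the arrays compared or the t-test, and 0 to 5 with replicates or arrays left out.

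Without the replicate block, 3 of the 10 passed for the mimic in control cells (HIF1A did not, with adjusted p = 0.0865, limma), 0 in silenced cells, and 0 for silencing with the mimic. The HIF targets lower without the block were 9 in control and 0 in silenced cells, and all genes called were 1997 and 78. The t-test called 0 of all genes in every comparison, and leaving out arrays gave 1211 to 4429 for the mimic in control cells, 0 to 2291 in silenced cells, 0 to 590 for silencing alone and 0 to 806 with the mimic. Other settings reached 2394, 1117, 1390 and, for the difference of the mimic effects, 291. With 75th percentile scaling 80.2% of the genes called in silenced cells were higher, against 58.4%, and with the strict filter 76.4%. Dim genes such as ANGPTL4, NRP2 and CA9 are limited by their signal over background. The causes of these shifts were not tested.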
